A study of Mus musculus with 38 samples.

Results

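Spink1, Igfbp1, Lect2, Dpp4, Palm3 and Ppp1r17 were followed through mouse embryonic fibroblasts (MEFs) on the way to cells that resemble primitive endoderm (PrE). They are 6 of the 20695 genes in a single-cell table of unique molecular identifiers (UMIs, each standing for 1 captured mRNA molecule), and were picked as secreted and surface genes from among those with the highest folds in 1 annotated cell type, ParE, of 1 sample. The folds of that sample therefore describe the choice and are not a finding. In the order of folds the 6 genes held ranks 3, 4, 10, 12, 17 and 29 of 9372 ranked genes, so they are a selection and not the leading 6. The last of them, Palm3, had a log2 fold of 5.07 at rank 29, between Ihh (5.08, rank 28) inside and Slc23a1 (5.07, rank 30) just outside. The same genes were then read in 25 columns of bulk RNA libraries given in FPKM (fragments scaled by transcript length and by library size), with 35976 genes in the table of time courses and 37108 in the table of factor sets, and their surroundings were read in 13 peak lists.

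All cells came from MEFs. A sample of MEFs, whose labels name no factor, was measured by ATAC-seq only, and the MEFs of the other samples received retroviruses and were kept in iCD3, a medium with vitamin C, mLIF, bFGF, CHIR99021 (an activator of Wnt signalling), SGC0946 (an inhibitor of the histone methyltransferase DOT1L) and Y27632. JGES stands for the introduced factors Jdp2, Glis1, Esrrb and Sall4, JGE lacks Sall4, JGEO has Oct4 in its place and JGESO has both. JGES cells were sampled at day 0 and at days 1, 3, 5 and 7 without BMP4 (BMP4−) or with BMP4 at 10 ng/ml (BMP4+), the other factor sets at day 7 in both media, and the single cells were JGES BMP4− and JGES BMP4+ of day 7. Other MEFs received SALL4-WT or SALL4-delN12, a form that lacks N-terminal residues, as the only factor and without BMP4, for RNA and open chromatin (ATAC-seq) at days 1, 5, 9 and 11 and for Cut&Tag of SALL4 and of the active-enhancer mark H3K27ac at day 6. Every condition was 1 sample and no test between conditions was run. No p-value is therefore given for any difference between conditions, and intervals below cover counting error only. The JGES library of day 0 already held Sall4 at 650 FPKM, so it is no measure of MEFs without factors.

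Primitive endoderm is the layer of the blastocyst that covers the epiblast on the side of the cavity, and its descendants are the visceral and the parietal endoderm of the yolk sac. Visceral endoderm takes up and secretes proteins before the liver exists, and shares with liver cells many genes for carrier proteins, apolipoproteins and hormone-binding proteins. Among the 6 genes, Spink1 encodes a small secreted inhibitor of trypsin, Igfbp1 a secreted protein that binds insulin-like growth factors, and Lect2 a secreted protein made mainly by liver. Dpp4 encodes a peptidase anchored at the cell surface that trims dipeptides from peptide hormones. Palm3 encodes a paralemmin, a protein held at the inner face of membranes, and Ppp1r17 an inhibitor of protein phosphatases in the cytoplasm, so these last genes are neither secreted nor exposed at the surface.

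In the mm10 genome with the GENCODE vM21 annotation, the genes lie on different chromosomes. Igfbp1 (ENSMUSG00000020429.7) spans 7197782 to 7202546 of chromosome 11 on the plus strand with 4 exons. Lect2 (ENSMUSG00000021539.9) lies at 56542464 to 56548502 of chromosome 13, minus strand, 7 exons. Dpp4 (ENSMUSG00000035000.8) is the longest, with 26 exons from 62330073 to 62412231 of chromosome 2 on the minus strand. Palm3 (ENSMUSG00000047986.12) lies at 84021471 to 84030295 of chromosome 8, plus strand, 7 exons. Spink1 and Ppp1r17 are placed with the peak data.

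RefSeq promoters were found for Igfbp1, Lect2, Dpp4 and Palm3, and not for Spink1 and Ppp1r17. The 250 bases before the start site are shown for Igfbp1 and Dpp4, on the strand of the gene and in build GRCm38.p6 (chr11:7197537-7197786, plus strand, and chr2:62412232-62412481, minus strand). Igfbp1 had no peak within 2 kb of its start site in the chromatin data below. Dpp4 had peaks in 7 of 9 ATAC-seq lists between 149 and 458 bases past its start site, outside the bases shown. Capitals mark matches on either strand to 4 short motifs that were searched, namely GATAA (letters bound by GATA factors), AATATT (a sequence to which zinc fingers of SALL4 bind), ACAAT (the core of SOX sites) and CAAAACA (letters with which the insulin response element of liver genes begins).
Igfbp1 promoter: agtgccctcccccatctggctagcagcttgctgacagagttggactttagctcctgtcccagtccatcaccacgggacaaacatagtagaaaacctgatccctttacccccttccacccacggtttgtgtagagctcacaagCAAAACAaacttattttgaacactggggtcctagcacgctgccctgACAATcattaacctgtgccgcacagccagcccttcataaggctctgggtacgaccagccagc
Dpp4 promoter: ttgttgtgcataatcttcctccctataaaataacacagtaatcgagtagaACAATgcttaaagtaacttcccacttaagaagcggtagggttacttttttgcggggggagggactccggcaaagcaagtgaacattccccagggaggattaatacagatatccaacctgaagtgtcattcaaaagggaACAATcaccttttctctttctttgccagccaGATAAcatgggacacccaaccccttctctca
The Igfbp1 window held CAAAACA 108 bases and ACAAT 62 bases before the start site, and the Dpp4 window held ACAAT 200 and 62 bases and GATAA 31 bases before it. Of 32851 promoters of the same length, 27.7% held ACAAT, 22.6% GATAA, 6.17% AATATT and 5.56% CAAAACA. The Lect2 promoter held GATAA and AATATT, and the Palm3 promoter held none of the 4. A match is a description of letters and not a binding site.

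The ParE cells of the BMP4+ sample, 2372 of its 11335 cells (20.9%), gave the values by which the genes were chosen. Their label can be read as parietal endoderm. Of 11 PrE markers, 10 were at least 2-fold higher in them than in the other cells of their sample, 5 of 10 parietal markers were and 8 of 10 visceral endoderm markers were. Gata4, a defining transcription factor of PrE, stood at 78.3 CPM (UMIs of a gene per 1000000 UMIs of a group of cells) in ParE cells. Among parietal markers, the basement membrane genes Sparc and Col4a1 stood at 2239 and 1171 CPM, against 1555 and 254 CPM in the other cells. Sparc was thus under 2-fold. Thbd, a surface receptor, stood at 0.537 against 1.51 CPM and Snai1 at 4.43 against 24.2 CPM, both lower in ParE cells. In the ParE cells of the BMP4− sample 8 of 10 parietal and 6 of 10 visceral markers were at least 2-fold higher than in the other cells, while Thbd had 0 UMIs. They are called ParE cells here, after their label, and carried markers of PrE and part of those of visceral and of parietal endoderm.

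In ParE cells of the BMP4+ sample, 27417 UMIs of Spink1 made 446 CPM, against 7.89 CPM in the other 8963 cells. Igfbp1 stood at 88.8 against 1.00 CPM, Lect2 at 48.7 against 0.938 CPM and Dpp4 at 88.8 against 1.92 CPM. Palm3 stood at 117 against 3.47 CPM and Ppp1r17 at 82.0 against 0.914 CPM. These are folds of 33.7 (Palm3) to 89.7 (Ppp1r17), and since the rule took them, the 9.32% of 17523 genes that were at least 2-fold higher in the same contrast is given only as background. The 10 genes with the highest folds included B4galnt2, Fabp1, Ppp1r17, Igfbp1, Clps, Apom, Hkdc1, Klb and Spink1, of which Fabp1, Clps and Apom act in lipid handling and Klb is a co-receptor for FGF hormones. F2 (prothrombin, rank 11) and Gata4 (rank 13) flanked Lect2, and Pla2g12b (rank 16) and Pth1r (rank 18) flanked Dpp4.

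Outside ParE cells, transcripts of the members were thin. Of the other cells of the BMP4+ sample, 10.4% had a Spink1 UMI, 5.61% a Palm3 UMI, 3.39% a Dpp4 UMI, and 1.73% or less a UMI of Lect2, Ppp1r17 or Igfbp1. With every cell thinned to 4000 UMIs, because the other cells had a median of 20411 UMIs and ParE cells 23772.5, those shares were 2.42% for Spink1, 1.09% for Palm3, 0.837% for Dpp4 and at most 0.324% for the others. For Spink1 the thinned share was close to one level in intermediate-state cells (2.32%), endothelial cells (2.55%) and placenta-like cells (3.90%), and droplets with free RNA can give such shares. However, 48 of the other cells with at least 5 Spink1 UMIs held 38.6% of the 1640 UMIs, and 40 of these 48 also had at least 3 of 6 PrE markers. What part of the Spink1 UMIs outside ParE was free RNA was not tested.

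Palm3 and Dpp4 were less even. In placenta-like cells of the BMP4+ sample Palm3 stood at 15.8 CPM (95% Poisson interval 13.6 to 18.3), against 2.68 CPM in intermediate-state cells, and 5.71% of thinned placenta-like cells had a Palm3 UMI against 0.786%. In the pluripotent cells of the BMP4− sample Palm3 stood at 10.5 CPM and Dpp4 at 7.62 CPM, against 1.61 and 0.781 CPM in intermediate-state cells of that sample. After thinning, 4.27% of pluripotent cells had a Palm3 UMI and 2.52% a Dpp4 UMI, against 0.531% and 0.386% of intermediate-state cells. Pluripotent cells thus held more of both transcripts, and placenta-like cells more Palm3, than intermediate-state cells of their sample beyond counting error. Dpp4 in placenta-like cells (3.37 CPM, interval 2.41 to 4.59) was above intermediate-state cells (1.62 CPM, interval 1.43 to 1.83). It overlapped endothelial cells (2.81 CPM, interval 2.28 to 3.42). After thinning, 0.779% of placenta-like and 0.674% of intermediate-state cells had a Dpp4 UMI. In the BMP4− sample the median depths were 15444 UMIs for the pluripotent and 11892 for the intermediate-state cells.

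**Figure D1:**
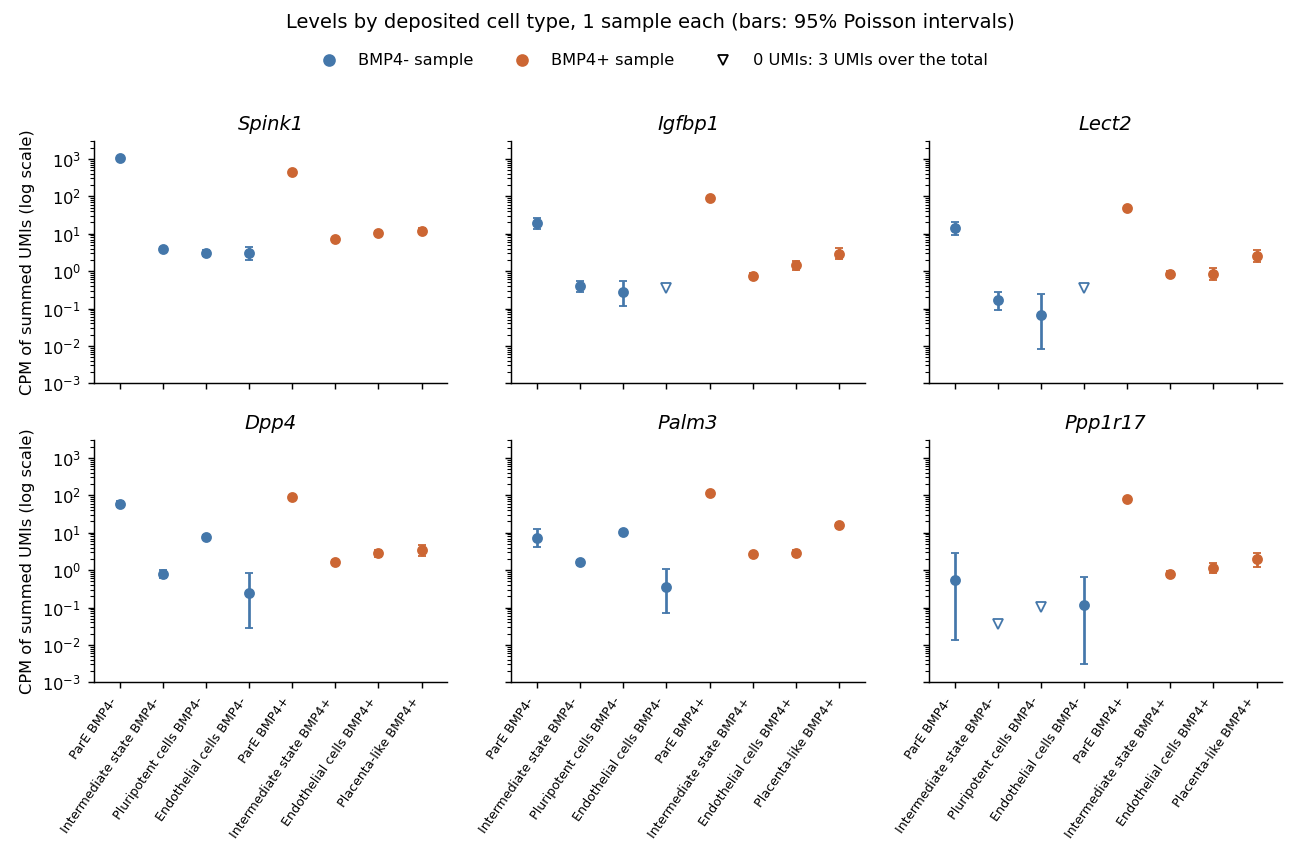
Level of each of the 6 genes in CPM (log axis) by sample and deposited cell type, with exact 95% Poisson intervals as bars and open triangles for sums of 0, drawn at 3 UMIs over the total of that type. Spink1 is near the top in ParE cells of both samples, at 446 CPM with BMP4 and 1088 CPM without, while Ppp1r17 is near its floor in every type of the BMP4− sample.

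The BMP4− sample was not used for the choice, and its ParE cells were few, 142 of 8685 (1.64%), with a median of 11562 UMIs. Of the 5 members with enough UMIs to compare, 5 were at least 2-fold higher in these cells than in the other 8543 cells, where 10.1% of 16465 genes were. The ParE label was given by the study, which showed the cells of both samples in a joint projection. What part the members' own transcripts had in that label is unknown, so this count is not independent of it. In the BMP4− sample too 10 of 11 PrE markers were at least 2-fold higher. Spink1, the trypsin inhibitor, led with 1088 against 3.68 CPM, a log2 difference of 8.21 (interval 8.06 to 8.36) at rank 2 of 7325 ranked genes, between Pdzd3 and Gata4. Lect2 stood at 14.3 against 0.132 CPM (6.76, interval 5.81 to 7.75, from 27 and 16 UMIs) and Igfbp1 at 19.0 against 0.338 CPM (5.82, interval 5.13 to 6.50, from 36 and 41 UMIs). The log2 folds of these secreted products in the sample used for the choice were 5.82 for Spink1, 5.70 for Lect2 and 6.47 for Igfbp1, so the order of the 3 was not the same in both samples.

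For Dpp4, the surface peptidase, the difference in the BMP4− sample was 4.60 (interval 4.27 to 4.92; 58.7 against 2.42 CPM). Palm3 stood at 7.41 against 3.69 CPM from 14 UMIs, a log2 difference of 1.00 with an interval of 0.12 to 1.77, so its place above 2-fold is within counting error. Pluripotent cells of the same sample held Palm3 at 10.5 CPM (interval 9.35 to 11.7), against 4.05 to 12.4 as the interval in ParE cells. ParE cells were thus not above pluripotent cells for Palm3. In cells picked by PrE markers in place of the label, the difference was 6.75 for Spink1, 3.84 for Dpp4 and 0.65 for Palm3, which was no longer counted. Ppp1r17 had 1 UMI in ParE cells and 1 in all other cells of the BMP4− sample, so its level there was at the limit of this depth, where 3 UMIs would be 1.59 CPM in ParE cells.

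Between the ParE cells of the samples, 4 of 6 members were at least 2-fold higher with BMP4, where 21.8% of 14628 genes were and 9.15% were at least 2-fold lower. The BMP4+ side of this contrast is the one the genes were chosen on, so nothing is read from the count, and Ppp1r17 entered it only through that side. Ppp1r17, the phosphatase inhibitor, had 5039 UMIs with BMP4 and 1 without, a log2 difference of 7.28 with an interval of 4.80 to 12.6. It rests on that single UMI, and with cells thinned to 4000 UMIs there were 0 without BMP4, which puts the difference at 3.97 or more against a floor of 3 UMIs. Palm3 was higher by 3.98 (3.23 to 4.85), Igfbp1 by 2.22 (1.75 to 2.74) and Lect2 by 1.77 (1.22 to 2.37), which became 2.64 after thinning. Dpp4 was higher by 0.60 (0.33 to 0.88), under 2-fold. Spink1 went the other way, with 1088 CPM without BMP4 and 446 CPM with it, a log2 difference of -1.29 (interval -1.35 to -1.22). Without BMP4, 15 of the 142 cells held 54.7% of its UMIs, and with BMP4 238 of the 2372 cells held 40.6%. The upper quartile was 23 Spink1 UMIs without BMP4 and 17 with it. The median cell had 2 Spink1 UMIs without BMP4 and 6 with it, and after thinning 52.8% and 55.8% of cells had one, so the lower level with BMP4 is that of the summed UMIs and not of the typical cell. In cells picked by PrE markers Spink1 differed by -0.80, under 2-fold, and Dpp4 by 1.08, past it.

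Other markers differed between the same cells. The summed level of 6 pluripotency markers was 878 CPM in ParE cells without BMP4 and 23.2 CPM with it, and 6 of 6 were at least 2-fold lower with BMP4. The summed level of 11 PrE markers was 1346 and 1821 CPM, and 1 of 11 was at least 2-fold higher. Of 10 visceral endoderm markers 8 were at least 2-fold higher with BMP4, and of 10 parietal markers 0 were higher and 2 lower. Of 14628 genes, 21.8% were at least 2-fold higher and 9.15% lower. Among the 8 visceral markers, Afp and Apoa1 had 0 UMIs without BMP4, Trf had 1, Apoa4 had 2 and Apob had 5. Those markers entered the count only through the BMP4+ cells. The count therefore describes these cells and is no support for a direction. The hepatocyte markers as a list summed to 7.94 CPM without and 7.57 CPM with BMP4, and 3 of the 5 in the table were at 0 in either. The other markers went opposite ways, Ahsg from 7.41 to 0.488 CPM and Fgb from 0.529 to 7.08 CPM. The part of the pluripotency transcripts and of the difference in depth in the members' values was not tested.

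Over all cells of each sample, 6 of 6 members were at least 2-fold higher with BMP4, where 30.5% of 18433 genes were. Most BMP4+ UMIs of each member are those of the ParE cells used for the choice, so this count too is a description. Spink1 stood at 108 against 20.3 CPM, Igfbp1 at 21.0 against 0.625 CPM and Lect2 at 11.8 against 0.349 CPM. Dpp4 stood at 21.7 against 3.28 CPM, Palm3 at 29.4 against 3.75 CPM and Ppp1r17 at 19.4 against 0.0162 CPM. The share of ParE cells was 20.9% with BMP4 and 1.64% without, so for Spink1 the order of the samples over all cells was the reverse of that within ParE cells.

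Within the ParE cells of the BMP4+ sample the members differed in how widely they were detected. Spink1 had a UMI in 80.0% of the 2372 cells, Palm3 in 74.4%, Dpp4 in 74.2%, Ppp1r17 in 59.2% and Lect2 in 59.1%, and Igfbp1 in only 20.1%. Thinned to 4000 UMIs, the shares were 55.8%, 34.2%, 28.9%, 24.4%, 18.0% and 12.1% in that order. Igfbp1 was concentrated in few cells. The tenth of ParE cells with the most Igfbp1 UMIs (238 cells) held 90.8% of them, against 33.4% for Dpp4 and 42.3% for Ppp1r17 in the corresponding cells of each, and single cells reached 98 UMIs of Igfbp1 but 11 of Lect2. In ParE cells without BMP4, Spink1 was found in 69.7%, Dpp4 in 49.3%, Lect2 in 13.4%, Palm3 in 8.45%, Igfbp1 in 4.93% and Ppp1r17 in 0.704%, or 1 cell. Thinned, these shares were 52.8%, 21.1%, 3.52%, 4.93%, 2.82% and 0.

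The 477 ParE cells with an Igfbp1 UMI were set beside the 1895 without, which had similar depth (medians of 22260 and 24114 UMIs). Because the split is by a member and the cells are of 1 sample, the values are a description. The share of all genes past 2-fold in this split was not counted. Igfbp3, another binding protein of insulin-like growth factors and the neighbour of Igfbp1 on chromosome 11, stood at 20.7 against 2.63 CPM, a log2 difference of 2.98. Of 8 secreted genes of yolk sac and liver with UMIs, 6 were at least 2-fold higher, with 2.81 for Apob, 2.20 for Apoa1, 2.02 for Afp, 1.59 for Rbp4, 1.45 for Apoa2 and 1.26 for Ttr, and Fgb (0.42) and Trf (-0.06) were not. Alb had 0 UMIs in both. Of the IGF axis, Igfbp2 was also past 2-fold (1.07, 291 against 139 CPM), and the growth factor Igf1 was lower, at -1.15. The other members differed by less than 2-fold. Palm3 stood at 154 against 108 CPM (0.51) and, after thinning, was found in 52.3% of cells with an Igfbp1 UMI and 31.7% of those without. Dpp4 stood at 70.1 against 93.3 CPM (-0.41), in 20.6% and 30.1% of thinned cells. Lect2 (0.14), Ppp1r17 (0.07), Spink1 (-0.05) and Gata4 (-0.04) were closer to level.

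Single ParE cells of the BMP4+ sample had UMIs of a median of 4 members, 1881 cells (79.3%) had at least 3, 139 (5.86%) had all 6 and 64 (2.70%) had none. After thinning the median was 2 and 25.9% had at least 3. Without BMP4 the median was 1, and 22 of 142 ParE cells (15.5%) had at least 3, or 4 cells (2.82%) after thinning. Outside ParE, 81 of 8963 cells with BMP4 (0.904%) had at least 3 members, and 62 of those also had at least 3 of 6 PrE markers. Their median was 41948 UMIs, against 20288.5 in the remaining cells, so they were deep cells, and whether they were doublets was not tested. Across the 2372 cells, Spearman correlations of pairs were taken on UMIs divided by the total UMIs of each cell, a divisor both genes share. They ran from -0.15 for Igfbp1 with Dpp4 to 0.42 for Spink1 with Dpp4.

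**Figure D2:**
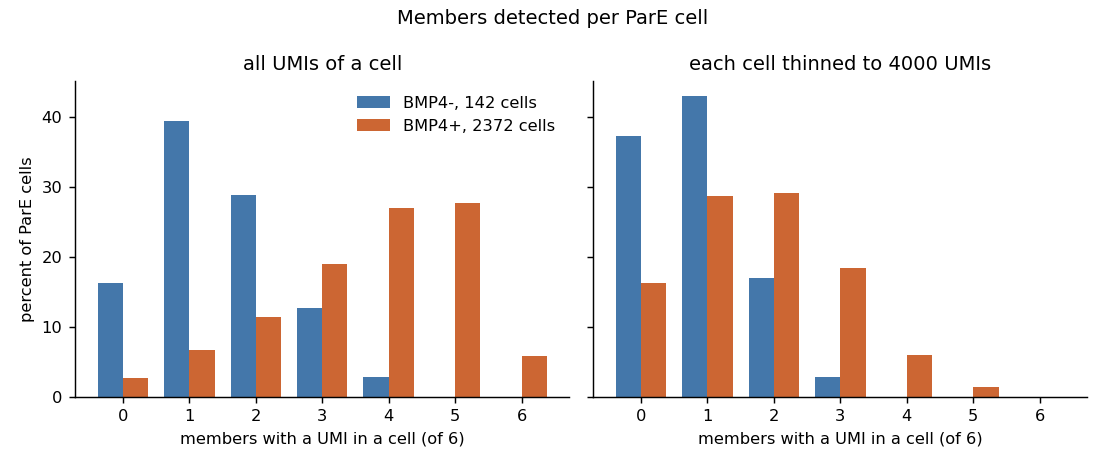
Percent of ParE cells of each sample by the number of members with at least 1 UMI, with all UMIs and with every cell thinned to 4000 UMIs. With BMP4 79.3% of the cells have at least 3 members with all UMIs and 25.9% after thinning.

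Relatives of each member were counted in the same contrasts, from lists written together with the members. Among 13 genes of the IGF axis, 5 were at least 2-fold higher in ParE cells with BMP4 than without, namely Igfbp7 (3.12), Igfbp6 (2.86, from 1 UMI without BMP4), Igf2 (1.59), Igf2r (1.13) and Igfbp5 (1.04), and Igf1 (-1.96) was lower. Against the other cells of the BMP4+ sample, however, 0 of these 13 were at least 2-fold higher in ParE cells and 9 were lower (27.6% of all genes tested were). Of 9 genes of the Dpp4 family and its ligand, 0 were higher and 4 lower in ParE cells than in others, and of 3 paralemmin genes 0 were higher and 2 lower. Of 6 Kazal inhibitors and trypsinogens, the relatives and targets of Spink1, Spink2 was higher (2.62) and 5 were lower. Of the hepatic and yolk sac secreted genes, 7 of 8 were at least 2-fold higher in ParE cells with BMP4, where 21.8% of 14628 genes were. Rbp4 was higher by 2.23, from 6573 UMIs with and 43 without BMP4. Trf (537 UMIs) and Fgb (435 UMIs) had 1 UMI each without BMP4, and Apob (681 UMIs) had 5. Afp (670 UMIs) and Apoa1 (349 UMIs) had 0, which puts them at least 2.78 and 1.84 higher against a floor of 3 UMIs. These genes entered the count only through the BMP4+ cells. The count and the median of the list therefore describe these cells and are no support for a direction. The median log2 difference of that list was 2.15, beside 0.301 over all genes tested. Ada, which encodes the adenosine deaminase that binds DPP4, was higher with BMP4 by 2.22, from 302 UMIs with and 2 without it.

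In the bulk libraries of the JGES course, the members other than Palm3 stood below 1 FPKM through day 3. Bulk levels of a gene cannot tell fewer cells of a type from less RNA per cell. Spink1 was listed at 0 FPKM at days 0 and 1, and without BMP4 stood at 0.819 at day 3, 0.746 at day 5 and 2.71 at day 7. With BMP4 it was listed at 0 at days 1 and 3 and stood at 3.31 at day 5 and 24.1 at day 7. At day 5 the log2 difference in FPKM + 1 was 1.30 for Spink1, which was below 1 FPKM without BMP4. It was 1 of 3 members compared at that day that was at least 2-fold higher, where 8.78% of 14928 genes were at least 2-fold higher. At days 1 and 3, 0 members reached the 1 FPKM needed for comparison, and 3.75% and 6.81% of genes were higher.

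Igfbp1 came on between the last sampled days. With BMP4 it stood at 0.460 FPKM at day 1, was listed at 0 at days 3 and 5 and reached 68.6 at day 7. Without BMP4 it stood at 0.455 at day 3 and 0.251 at day 7 and was listed at 0 at days 0, 1 and 5. The ratio at day 7 was 274. The single-cell samples of the same day, over all cells, had 21.0 and 0.625 CPM, and both ratios rest on a low level without BMP4. Ppp1r17 was listed at 0 at each day without BMP4, and with it at 0.201 at day 5 and 3.63 at day 7. Lect2 was listed at 0 in 7 of the 9 JGES libraries and stood at 0.351 and 1.46 FPKM at day 7 without and with BMP4.

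Dpp4 and Palm3 were also found without BMP4. Dpp4 ran from 0.113 FPKM at day 0 through 0, 0.232 and 1.94 to 3.63 at day 7 without BMP4, and through 0, 0.120 and 0.861 to 5.70 with it. At day 5 the order of the media for Dpp4 was the reverse of that at day 7. Palm3 stood at 2.57 FPKM at day 0 and at 0.226 (BMP4−) and 0.729 (BMP4+) at day 1, and reached 3.71 and 9.51 at day 7. Palm3 was the 1 member above 0 in all 17 libraries of the time courses.

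At day 7, 4 of 6 members were at least 2-fold higher with BMP4, where 10.3% of 15347 genes were. The log2 differences were 5.80 for Igfbp1, 2.76 for Spink1, 2.21 for Ppp1r17 and 1.16 for Palm3, with 0.86 for Lect2 and 0.53 for Dpp4 under 2-fold. The median over all genes tested was -0.135, so the members lay slightly further from the typical gene than from 0. A gene below 1 FPKM in one library enters such a count only through the other, where it is high, and at 0 has to pass 2-fold. This held for Spink1 at day 5 and for Igfbp1, Lect2 and Ppp1r17 at day 7, so such a count describes these libraries and is no support for a direction.

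Marker levels differed between the day 7 libraries as well. The 11 PrE markers summed to 204 FPKM without BMP4 and 337 with it, and 5 of 11 were at least 2-fold higher. The 10 visceral endoderm markers summed to 39.5 and 181 FPKM with 9 of 10 higher, and Ttr, the carrier of thyroid hormone, went from 1.56 to 52.3. The fibroblast markers summed to 69.6 and 982 FPKM with 5 of 6 higher, and the pluripotency markers to 885 and 41.6 FPKM with 6 of 6 lower. Sums of hepatocyte markers stayed between 0 and 3.52 FPKM over all bulk libraries. Of the IGF axis 5 of 11 genes were higher at day 7, among them Igfbp7 (3.05), Igfbp6 (2.31) and Igf2 (2.07). The part of cell composition in the members' values was not tested.

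**Figure D3:**
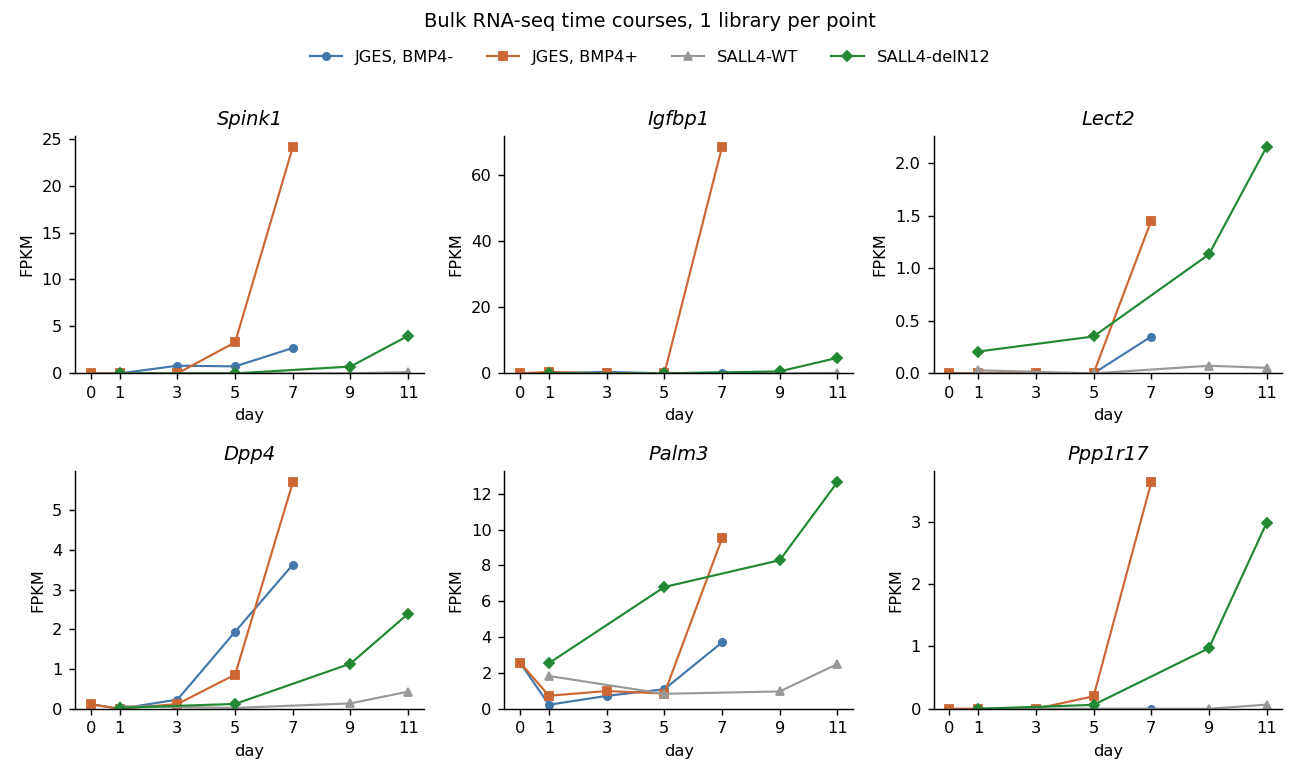
FPKM of each member against day in the JGES courses without and with BMP4, which share the day 0 library, and in cells that received only one form of SALL4 (WT or delN12). Each point is 1 library. Igfbp1 stands at 68.6 FPKM at day 7 of JGES with BMP4 and is listed at 0 at day 5, and Palm3 climbs with SALL4-delN12 from 2.55 at day 1 to 12.7 at day 11.

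The factor sets of day 7 were given in a table of their own, in which the JGES libraries are copies of those above (99.8% of genes within 1% of a constant ratio of 0.975 or 0.978). They are the same measurement and not a repeat. Sall4 itself stood at 2.09 and 6.23 FPKM in JGE, 28.9 and 30.3 in JGEO, 273 and 190 in JGES, and 174 and 213 in JGESO, without and with BMP4. Oct4 (Pou5f1) stood at 370 and 449 FPKM in JGESO and at 1570 and 1599 in JGEO. It was also found in JGES, which did not receive it, at 224 FPKM without and 5.94 with BMP4. Sall4 was thus highest in the sets that received it, while Glis1, a factor of all 4 sets, stood at no more than 1.13 FPKM in any library. Jdp2, also in all 4 sets, stood without and with BMP4 at 1722 and 1499 FPKM in JGE and 1290 and 1513 in JGEO. It stood at 228 and 254 FPKM in JGES and 320 and 541 in JGESO. Esrrb stood at 561 and 369 FPKM in JGE, 384 and 486 in JGEO, 167 and 124.9 in JGES and 109 and 134 in JGESO. Jdp2 and Esrrb were thus lower in the sets with Sall4, and the part of this in the members' values was not tested.

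In the sets without Sall4, every member stood below 2 FPKM in either medium. In JGE, Spink1, Igfbp1, Lect2 and Ppp1r17 were listed at 0 in both libraries, Dpp4 stood at 0.183 without and 0.102 FPKM with BMP4, and Palm3 at 1.90 and 0.195. The difference for Palm3, the membrane protein, was -1.28, so that 0 members were at least 2-fold higher (4.28% of 14714 genes) and 1 was lower (4.78%). In JGEO the members ran from 0 to 1.92 FPKM, the latter Palm3 without BMP4. Spink1 stood at 0 and 0.327 FPKM, Igfbp1 at 0.531 and 0.272 and Dpp4 at 0.181 and 0.680. The only member compared there, Palm3, differed by -0.30, and 2.26% of 14749 genes were at least 2-fold higher.

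With Sall4 the picture differed by member and medium. In JGES, 4 of 6 members were at least 2-fold higher with BMP4 (10.2% of 15835 genes), Spink1 with 2.64 and 23.6 FPKM, Igfbp1 with 0.244 and 67.0, Palm3 with 3.61 and 9.30 and Ppp1r17 with 0 and 3.55. In JGESO, 3 of 4 were (5.29% of 13521 genes), and Spink1 stood at 11.4 FPKM without BMP4 and at 114 with it. Igfbp1 stood at 26.9 and 61.0 FPKM and Palm3 at 5.40 and 17.7. Igfbp1 thus reached 26.9 FPKM in JGESO without BMP4, where JGES had 0.244. Ppp1r17 stood at 0.291 and 1.41 FPKM in JGESO.

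Lect2 and Dpp4 did not follow the others in JGESO. Lect2 stood at 0.140 and 0.0942 FPKM there, against 0.342 and 1.42 in JGES, and Dpp4 at 0.776 and 0.695, against 3.54 and 5.57. The Dpp4 level in JGESO with BMP4 was thus close to that in JGEO with BMP4. The PrE markers in JGESO summed to 532 FPKM without and 437 with BMP4, against 199 and 329.6 in JGES of the same table, and 0 of 11 were at least 2-fold higher with BMP4 and 2 were lower. Of 9 visceral endoderm markers 3 were higher and 1 lower. The members thus differed within JGESO while the PrE markers as a list were not lower than in JGES, as values of 1 library each.

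**Figure D4:**
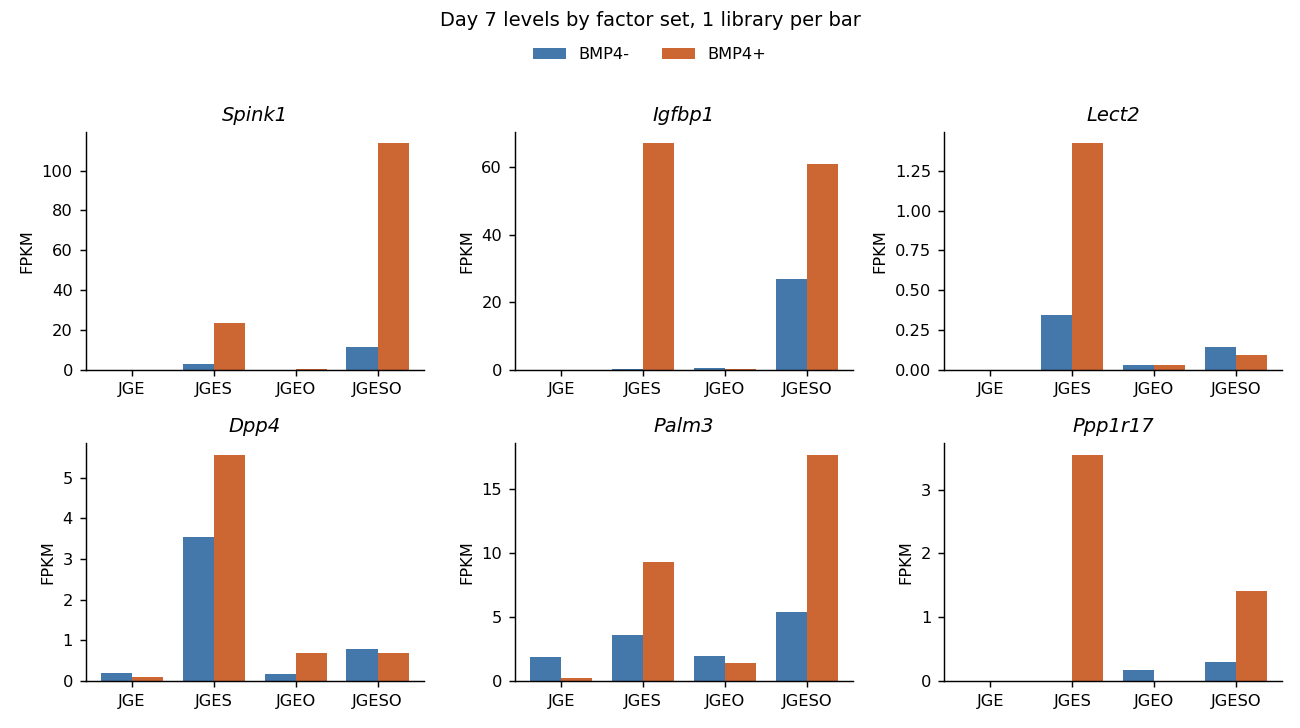
FPKM of each member at day 7 in JGE, JGES, JGEO and JGESO without and with BMP4; each bar is 1 library. Spink1 reaches 114 FPKM in JGESO with BMP4, and Dpp4 is at 5.57 in JGES with BMP4 against 0.695 in JGESO.

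With Sall4 alone and no BMP4, the members other than Palm3 stayed at or below 0.432 FPKM with SALL4-WT and reached 2.16 to 4.71 FPKM with SALL4-delN12 at day 11. Palm3 stood at 1.83, 0.836, 0.968 and 2.50 FPKM with SALL4-WT at days 1, 5, 9 and 11 and at 2.55, 6.80, 8.30 and 12.7 with SALL4-delN12. The log2 difference for Palm3 was 2.09 at day 5 and 2.24 at day 9. At day 1, 0 of 1 member compared was at least 2-fold higher with SALL4-delN12 (4.18% of 12794 genes), at day 5 it was 1 of 1 (4.67% of 13369) and at day 9 it was 1 of 3 (6.09% of 13483). The other members at day 9 were Lect2, higher by 0.99, and Dpp4, higher by 0.91.

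Among the secreted members, Spink1 with SALL4-delN12 was listed at 0 at days 1 and 5 and stood at 0.728 FPKM at day 9 and 4.01 at day 11, against 0.136 at day 11 and 0 before with SALL4-WT. Igfbp1 stood at 0.0371, 0, 0.607 and 4.71 FPKM with SALL4-delN12 and at 0.152 at day 11 and 0 before with SALL4-WT. Lect2 stood at 0.208, 0.352, 1.13 and 2.16 FPKM with SALL4-delN12 and at no more than 0.0727 with SALL4-WT. At day 11 this was more Lect2 than the 1.46 FPKM of JGES with BMP4 at day 7, in 1 library of each.

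Dpp4 went from 0.0253 FPKM at day 1 to 2.39 at day 11 with SALL4-delN12 and from 0.0648 to 0.432 with SALL4-WT, and Ppp1r17 from 0 to 2.98 and from 0 to 0.0663. At day 11, 6 of 6 members were at least 2-fold higher with SALL4-delN12 than with SALL4-WT, where 6.55% of 13946 genes were. The log2 differences ran from 1.24 for Dpp4 to 2.31 for Igfbp1, and the ratios of FPKM from 5.06 for Palm3 to 45.0 for Ppp1r17. Except for Palm3, the members were below 1 FPKM with SALL4-WT and entered this count only through the SALL4-delN12 library. Palm3, with 2.50 and 12.7 FPKM, was compared from both.

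The day 11 libraries differed in other ways. Of 10 PrE markers compared 6 were at least 2-fold higher with SALL4-delN12, and the list summed to 325 FPKM against 126 with SALL4-WT. Macrophage markers summed to 310 FPKM against 20.8 with 5 of 5 higher, and at day 1 to 137 against 75.1. Placenta-like markers summed to 203 against 46.7, and at day 1 to 168 against 14.1. The placenta-like sum was thus more than 2-fold higher with SALL4-delN12 already at day 1, while the macrophage sum was higher by less than 2-fold then. Sall4 ran from 428 to 971 FPKM in the SALL4-delN12 libraries and from 290 to 549 in the SALL4-WT libraries. The part of these differences in the members' values was not tested. Among relatives, Igf2 (3.25) and Igfbp2 (1.41) of 12 IGF genes, Spink8 (2.96) and Spink4 (1.23) of 3 Kazal inhibitors, and Apoa1 (3.45), Rbp4 (1.96) and Apoa2 (1.02) of 5 hepatic and yolk sac genes were higher with SALL4-delN12, and the paralemmin Palm (-1.86) and the peptidase Fap (-1.74) were lower, as were 6.58% of all genes.

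Across the 17 libraries of the time courses, the 3 genes with the most similar pattern of log2(FPKM + 1) were taken for each member by Pearson's r, as a description over libraries that share their courses. For Dpp4 they were Klb (0.97), B4galnt2 (0.96) and Ramp2 (0.95). For Lect2 they were Hkdc1 (0.95), Myl3 (0.95) and Pth1r (0.94), and for Ppp1r17 they were Hkdc1 (0.94), Cldn7 (0.91) and Fgfr4 (0.90). For Spink1 they were Lrp2 (0.91), Rnase1 (0.90) and Ttr (0.90), for Palm3 Pth1r (0.93), Krt14 (0.85) and St14 (0.84), and for Igfbp1 Klk4 (0.90), Mir1839 (0.88) and Rhox9 (0.86). B4galnt2, Hkdc1 and Klb were also among the 10 genes of highest fold in ParE cells. With Spearman's correlation, 2 of the 18 named genes (Ramp2 and Pth1r for Palm3) stayed among the leading 3 of their member. Igfbp1 stood above 1 FPKM in 2 of these 17 libraries, and Mir1839 had a Spearman correlation with it of 0.19. Ppp1r17 was also above 1 FPKM in only 2 libraries, Lect2 in 3, Spink1 in 4 and Dpp4 in 5. Between members r ran from 0.54 (Spink1 with Palm3) to 0.93 (Lect2 with Ppp1r17). Spearman's correlation of these pairs was 0.39 and 0.64.

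Chromatin was measured in MEFs and in cells with SALL4-WT or SALL4-delN12, where the members' RNA differed between the forms. The peak lists held 78517 to 125470 peaks for ATAC-seq, and each peak carries a score of which 50 was the lowest in the ATAC-seq lists. Within 2 kb of their start sites, Spink1, Igfbp1 and Ppp1r17 had a peak in 0 of 13 lists. ATAC-seq peaks lay there for 3 of 6 members in MEFs (Lect2, Dpp4 and Palm3), where 66.2% of 21938 genes had one, and for 2 or 3 in each later list. The shares of all genes there were 60.0%, 64.4%, 63.7% and 64.0% with SALL4-WT and 57.9%, 59.8%, 61.4% and 61.9% with SALL4-delN12 at days 1, 5, 9 and 11. SALL4 peaks lay there for Lect2 and Palm3 with SALL4-WT (2 of 6; 51.5% of genes) and for Palm3 with SALL4-delN12 (1 of 6; 38.5%). H3K27ac peaks lay there for Lect2 and Palm3 with both forms (2 of 6; 47.6% and 56.8% of genes). As shares of the 6 genes these were below the share over all genes in each list. Around the Palm3 start site, peaks lay between 84020946 and 84023734, that is from -525 to 2263, in all 13 lists. The first base of Palm3 itself lay under an ATAC-seq peak in MEFs, in 4 of 4 SALL4-delN12 lists and, with SALL4-WT, at day 11 only. This pattern, singled out after it was seen, was found for 0.146% of 21938 genes, counting those with the first base under a peak in all 4 SALL4-delN12 lists and at most 1 SALL4-WT list.

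Spink1 (ENSMUSG00000024503.3) spans 43728082 to 43737557 of chromosome 18 on the minus strand with 4 exons, and Ppp1r17 (ENSMUSG00000002930.6) spans 56017497 to 56032689 of chromosome 6 on the plus strand with 5 exons. Within 25 kb of the 6 start sites there were 15 separate sites of peaks at Palm3, 11 at Igfbp1, 10 at Lect2, 8 at Dpp4, 1 at Spink1 and 0 at Ppp1r17. Of all genes, 17.4% had at most 1 such site, as Spink1 and Ppp1r17 did. Igfbp1 had no promoter peak either. At chr11:7192238-7193224 (-5544 to -4558) it had SALL4 peaks in both forms (scores 128.70 with SALL4-WT and 97.06 with SALL4-delN12) and an H3K27ac peak only with SALL4-delN12 (63.30). At its downstream end, chr11:7201930-7203430 (4148 to 5648), SALL4 (109.00) and H3K27ac (91.40) peaks were found with SALL4-delN12 and not with SALL4-WT. Another 4 of the 11 sites had a SALL4 peak with SALL4-WT only, and the site from -12426 to -11535 had an H3K27ac peak with SALL4-WT only. Over all lists, 47.9% of the SALL4 peaks and 61.5% of the H3K27ac peaks of SALL4-delN12 had no overlapping peak with SALL4-WT, and 11.2% of the H3K27ac peaks of SALL4-WT had none with SALL4-delN12.

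At Lect2 and Dpp4, single sites divided the forms. Between genes at chr13:56566031-56566993, from -18491 to -17529 of Lect2, ATAC-seq peaks were found in MEFs (score 162.67) and with SALL4-delN12 at each of days 1, 5, 9 and 11 (93.30, 152.44, 178.29 and 194.35), and in 0 of 4 lists with SALL4-WT. SALL4 (230.72) and H3K27ac (52.80) peaks lay there with SALL4-delN12 only. Of 180433 ATAC-seq sites in the genome, 1.01% had a peak in all 4 SALL4-delN12 lists and in no SALL4-WT list. Nearer to Lect2, at chr13:56549125-56550091 (-1589 to -623), MEFs had an ATAC-seq peak (280.13) and H3K27ac was listed with both forms (52.76 with SALL4-WT and 78.00 with SALL4-delN12). There were ATAC-seq peaks in 4 of 4 SALL4-WT lists (190.18, 349.57, 261.81 and 212.92) and a SALL4 peak with SALL4-WT only (237.83), while SALL4-delN12 had ATAC-seq peaks at days 1, 5 and 9 (207.19, 133.98 and 133.32) and none at day 11. Over the genome 48.9% of the SALL4 peaks of SALL4-WT had no overlapping peak with SALL4-delN12.

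Dpp4 had 2 neighbouring sites of opposite kind. At chr2:62422739-62424173 (-11942 to -10508) MEFs had an ATAC-seq peak (526.84), SALL4-delN12 had them at days 1, 9 and 11 (the highest 96.71) and a SALL4 peak (360.00), and SALL4-WT had none. A site with peaks in at least 3 of the 4 SALL4-delN12 lists and in no SALL4-WT list was found for 3.29% of all sites. At chr2:62425817-62426522 (-14291 to -13586) SALL4-WT had ATAC-seq peaks at days 1, 5, 9 and 11 (100.33, 178.36, 162.19 and 200.63) and a SALL4 peak (232.59), and neither MEFs nor SALL4-delN12 had any. A site in all 4 SALL4-WT lists and no SALL4-delN12 list was found for 0.982% of all sites. In an intron of Dpp4, at chr2:62397857-62400119 (12112 to 14374), all 9 ATAC-seq lists had a peak, SALL4 peaks scored up to 163.20 with SALL4-WT and 614.77 with SALL4-delN12, and H3K27ac was listed with SALL4-delN12 only (92.10). Scores depend on the depth of each library, which is unknown, so they are compared as present or absent and not by size.

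The 250 bases at the centre of the ATAC-seq peaks of these 3 sites are shown because they lie at the sites whose listing divided the forms, in mm10 and on the strand of the gene, the minus strand in each case (chr13:56566342-56566591, chr2:62423348-62423597 and chr2:62425943-62426192). Capitals mark the same 4 motifs on either strand.
Lect2 upstream site, SALL4-delN12: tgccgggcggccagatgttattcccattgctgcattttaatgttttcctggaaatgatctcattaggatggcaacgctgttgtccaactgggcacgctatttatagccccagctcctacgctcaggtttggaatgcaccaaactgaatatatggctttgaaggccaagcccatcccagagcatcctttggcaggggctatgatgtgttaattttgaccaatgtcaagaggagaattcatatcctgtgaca
Dpp4 upstream site, MEFs: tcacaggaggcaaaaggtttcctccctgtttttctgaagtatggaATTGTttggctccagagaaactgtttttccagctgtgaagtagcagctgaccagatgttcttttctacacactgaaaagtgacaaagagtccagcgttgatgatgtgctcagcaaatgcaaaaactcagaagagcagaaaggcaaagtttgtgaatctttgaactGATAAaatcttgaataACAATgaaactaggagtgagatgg
Dpp4 upstream site, SALL4-WT: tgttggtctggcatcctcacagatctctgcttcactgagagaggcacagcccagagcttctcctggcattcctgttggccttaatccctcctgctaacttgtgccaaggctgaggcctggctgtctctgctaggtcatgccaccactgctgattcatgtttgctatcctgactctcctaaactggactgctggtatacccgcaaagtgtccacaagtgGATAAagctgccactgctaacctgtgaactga
The Lect2 site, shown from the SALL4-delN12 peak of day 11, held none of the 4 motifs. The Dpp4 stretch at the centre of the MEF peak held ACAAT 2 times and GATAA 1 time. The SALL4-delN12 ATAC-seq peaks of that site overlapped only part of the stretch at days 9 and 11 and none of it at day 1. The SALL4-WT site held GATAA 1 time. AATATT was in none of the 3 windows. Of ATAC-seq peaks of the same width, GATAA was in 23.2% with SALL4-delN12 and 19.4% with SALL4-WT at day 11 and 23.1% in MEFs, and ACAAT in 28.9%, 26.1% and 28.9%, so neither motif sets these sites apart.

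**Figure D5:**
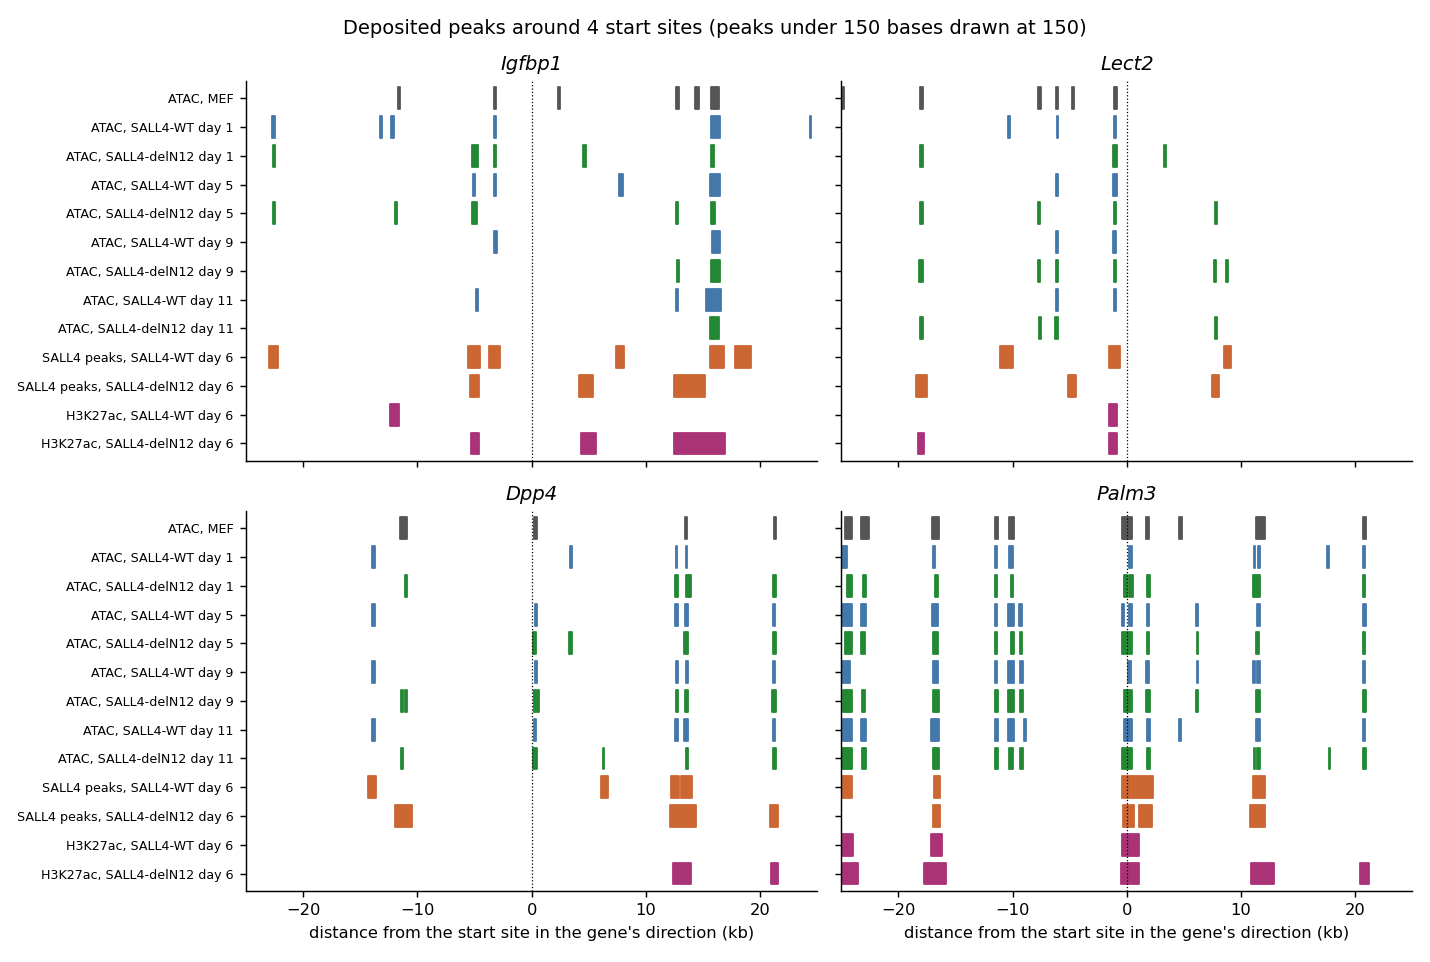
Deposited peaks in the 13 lists within 25 kb of the start sites of Igfbp1, Lect2, Dpp4 and Palm3, by distance from the start site on the strand of the gene; each bar is 1 peak, and peaks under 150 bases are drawn at 150. Upstream of Lect2, from -18491 to -17529, bars are present for MEFs and for all 4 SALL4-delN12 lists and absent for all 4 SALL4-WT lists.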

How the data were processed

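The members and gene lists were chosen with earlier results of these data known. For the single cells, the authors ran STARsolo on mm10 (GENCODE vM21), filtered cells with Scanpy and deposited UMI counts with a cell type in each column name. The 20020 cells of the samples were used, and 10749 columns of other cells were not. Counts were summed over cells, scaled to 1000000 UMIs of the group (CPM) and given exact Poisson intervals at 95%. Pairs of sums under 10 UMIs were not compared, so Ppp1r17 was left out of the BMP4− contrast. Only 2 barcodes were shared, and no doublet caller was run. For bulk RNA, the authors trimmed reads (Trim Galore 0.6.4), mapped them (HISAT2 2.2.1) and deposited FPKM values from StringTie 2.2.1. The JGES columns among the factor sets name no day and were read as day 7 from the results text of the study. Genes with at least 1 FPKM in either library were compared by log2(FPKM + 1), with 2-fold as the limit for a count, and these fold changes understate the change of low genes. Read depth behind FPKM values and peaks is unknown. For peaks, the authors used Bowtie2 2.4.5, SAMtools 1.16.1 and MACS 1.4.2, merged Cut&Tag replicates first, and deposited a score per peak. Genes named are the members, the 10 leading genes by fold in ParE cells among those with a UMI in at least 10% of them (1 is not reported here), the neighbours in that ranking, the 3 genes most like each member with at least 5 FPKM in a library, and up to 4 relatives a list past 2-fold; other genes were named after their values were seen. Promoter sequences are from RefSeq (GRCm38.p6) and sites from mm10. Scripts ran in Python 3.11.15 with numpy 2.4.6, pandas 2.3.3, scipy 1.17.1 and matplotlib 3.10.9, and the counting of genes past 2-fold was tested on simulated data.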

Additional observations from a re-analysis of the deposited data

Results flagged for a closer look

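Palm3 differed between factor sets in the direction of its difference with BMP4 at day 7. The log2 difference was -1.28 in JGE (1.90 FPKM without and 0.195 with BMP4), 1.16 in JGES (3.61 and 9.30) and 1.55 in JGESO (5.40 and 17.7), and in JGEO, under 2-fold, -0.30 (1.92 and 1.37). In JGE it entered the comparison only through the library without BMP4. Each value is a pair of single libraries, and the difference between the sets was not tested.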

How the results depend on the processing

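Every condition was 1 library, so spread between cultures is not in any value here, and the low FPKM of Lect2, Igfbp1 and Ppp1r17 in many libraries and the 142 ParE cells without BMP4 limit what these data can show. Of 67 alternative counts of members, 62 were within 1.5 times the count reported and 5 were not. A pseudocount of 0.1 FPKM in place of 1 raised the members at least 2-fold higher with SALL4-delN12 at day 9 from 1 to 3, adding Lect2 (2.84) and Dpp4 (2.39), which were below 1 FPKM with SALL4-WT, and the share of all genes from 6.09% to 9.32%. In JGES at day 7 it added Lect2 (1.79), with 13.6% of genes then past 2-fold. A window of 500 bases in place of 2 kb left 1 member with a SALL4 peak and 1 with an H3K27ac peak, in place of 2 each, and a peak score of at least 100 left 0 with H3K27ac. With Spearman's correlation, 2 of the 18 leading genes named as most like a member (Ramp2 and Pth1r) stayed among the leading 3. Of single values, 179 stayed within their counting interval or, for FPKM, on the same side of 2-fold, 15 did not, and 0 called values changed sign. In cells picked by PrE markers (156 without and 2611 with BMP4) in place of ParE cells, Spink1 without BMP4 stood at 6.75 on the log2 scale above other cells in place of 8.21, Dpp4 at 3.84, and Palm3 at 0.65, which left 4 members counted in place of 5. Thinned to 4000 UMIs, the difference between ParE cells was 2.64 for Lect2 and, against a floor of 3 UMIs, at least 3.97 for Ppp1r17. Each group holds 1 sample, and although libraries could be paired by day or by factor set, no paired analysis was run.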
